A study of Bos taurus with 48 samples.

Results

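In bovine whole blood, 5 protein-coding genes are described here, namely MSR1, CD209, IL13RA1, TNFSF12 and AIF1, out of 24616 genes in the count table and 12677 genes that passed the filter on low counts. The identifiers in the table were ENSBTAG00000002885 for MSR1, ENSBTAG00000007312 for CD209, ENSBTAG00000019338 for IL13RA1, ENSBTAG00000031725 for TNFSF12 and ENSBTAG00000020554 for AIF1. All 5 genes passed that filter. They were chosen as receptors and products of phagocytes and monocytes from among the genes that the study listed as differing between the breeds. The breed differences below are therefore a description without a test. Changes between days and relations across calves were not criteria of the choice. For IL13RA1, however, the levels before weaning entered the choice through its breed difference, so its day changes are not independent of it. IL13RA1 is still counted among the 5 genes in the comparisons between days.

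Blood was sampled from 8 Holstein-Friesian (H-F) and 8 Jersey (J) bull calves 14 days before weaning was complete (d -14, the day before milk replacer began to be reduced), on the day after its removal (d 1) and a week later (d 8). The same calves were bled on all 3 days, which gave 48 libraries, and J calf 85 was left out of the fits as the calf that the study most likely removed, leaving 8 H-F and 7 J calves. All calves were kept indoors in groups, fed milk replacer and concentrate from an automatic feeder, and gradually weaned. All H-F calves shared a farm of origin and the J calves had come from other farms. The J calves were also older on average at the start and had a different concentrate allowance before weaning, although the H-F calves did not eat all of theirs. Breed, source farm and age, and any difference in feed, cannot be told apart. Library totals ranged from 28088019 to 39095624 counts in the 45 libraries used, with a median of 33666332. In whole blood, fewer cells of a type and less RNA per cell cannot be told apart.

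Monocytes are blood phagocytes that take up microbes and modified lipoproteins through surface receptors and can become macrophages or dendritic cells in tissue. MSR1 encodes class A scavenger receptor, a trimeric membrane protein that binds modified lipoproteins and bacterial surface molecules. CD209, also called DC-SIGN, is a C-type lectin that binds mannose-rich glycans on pathogens and is known from dendritic cells and macrophages. IL13RA1 is a subunit of the receptor for interleukin 13 and, with the interleukin 4 receptor alpha chain, also of the type II interleukin 4 receptor. TNFSF12 encodes TWEAK, a cytokine of the tumour necrosis factor family made by monocytes and macrophages, and AIF1 encodes a calcium-binding and actin-binding protein of monocytes, macrophages and microglia. Gene symbols in this section come from the study's lists of breed-responsive genes, and of 16 monocyte markers only FCGR3A and CLEC12A had a symbol there, so the monocyte label could not be checked against CD14 or CSF1R, which were not analysed here.

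Transcription of all 5 genes was lower in J than in H-F on all 3 days. In all 15 pairs of gene and day, each of the 7 J calves lay under the H-F mean, and in 13 pairs each lay under the H-F median. The breeds overlapped in 14 of the 15 pairs, the exception being AIF1 at d -14, when the lowest H-F calf exceeded the highest J calf. That was also the case for 0.671% of all genes on that day, and for 0.434% and 0.505% on d 1 and d 8. The levels are given as CPM (counts scaled to a common library size) with trimmed mean of M-values (TMM) scaling, which serves to compare calves for 1 gene and not 1 gene with another.

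**Figure D1:**
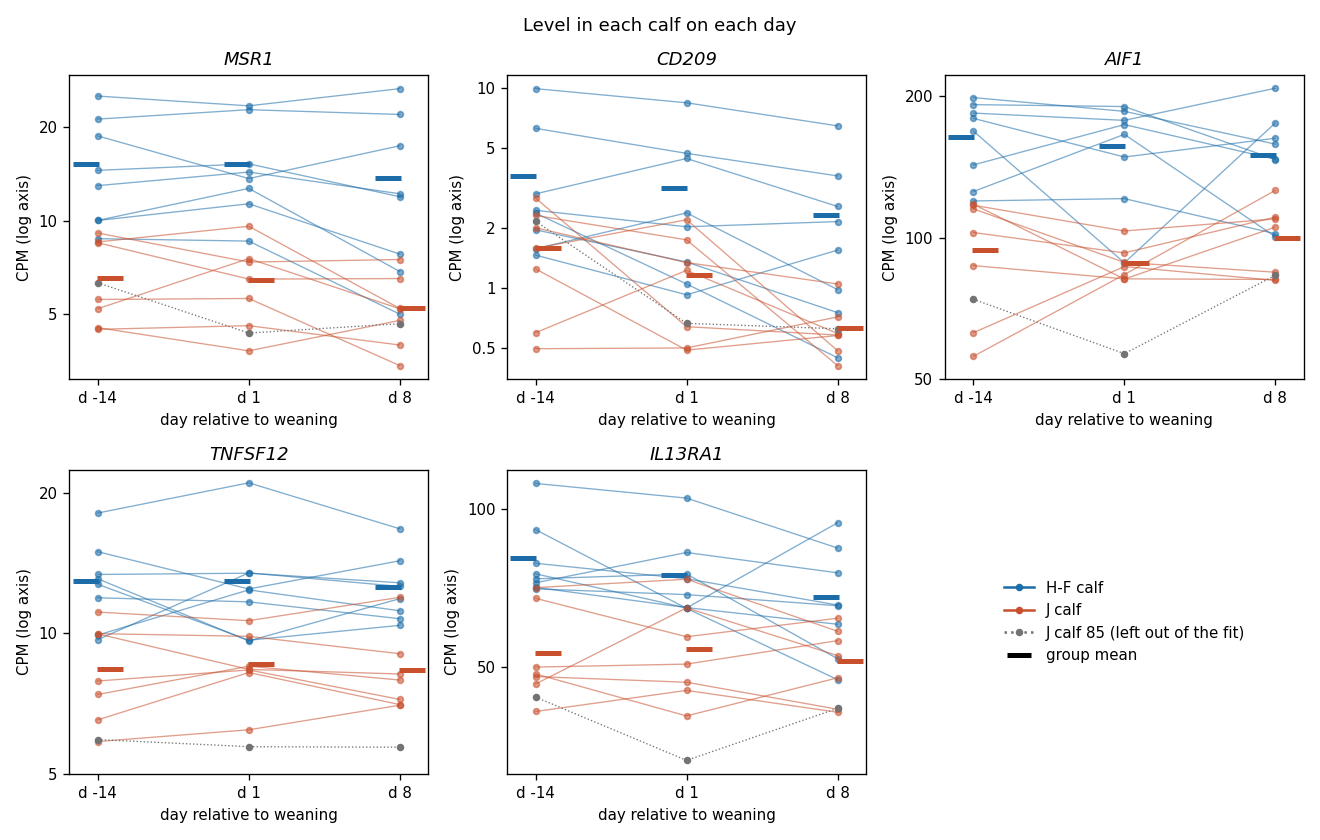
Level of each gene in every calf on the 3 sampling days, in CPM on a log axis; each line is a calf, thick dashes are the means of 8 H-F and 7 J calves, and the dotted line is J calf 85. The H-F means lie above the J means for all 5 genes on all 3 days, and H-F calf 32 has the highest CD209 and MSR1 level on each day.

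MSR1, the scavenger receptor, ranged in H-F from 8.75 CPM to 25.1 CPM at d -14, with a median of 13.7 CPM. In J at d -14 it ranged from 4.48 CPM to 9.12 CPM, with a median of 5.59 CPM. Only the highest J calf, calf 77, reached the level of the lowest H-F calf, calf 48, on that day. At d 1 the H-F calves lay between 8.59 CPM and 23.3 CPM with a median of 14.0 CPM, and the J calves between 3.82 CPM and 9.59 CPM with a median of 6.49 CPM. At d 8 the H-F range widened to between 5.01 CPM and 26.5 CPM around a median of 12.1 CPM, while the J calves lay between 3.43 CPM and 7.50 CPM around a median of 5.21 CPM. The overlap was therefore limited to 1 calf of each breed at d -14 and at d 1, and comprised 2 H-F and 4 J calves at d 8. The same H-F calves marked both ends, as calf 48 was the lowest and calf 32 the highest on all 3 days. The edgeR fit gave a log2 fold change of J relative to H-F of -1.20 (standard error (SE) 0.28) at d -14, -1.24 (SE 0.28) at d 1 and -1.38 (SE 0.29) at d 8, which correspond to levels 2.30-fold, 2.37-fold and 2.61-fold lower in J.

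CD209, the mannose-binding lectin, was a low-count gene, with 13 to 317 reads per library. At d -14 the H-F calves ranged from 1.46 CPM to 9.91 CPM with a median of 2.40 CPM, and the J calves from 0.497 CPM to 2.81 CPM with a median of 1.58 CPM. At d 1 the range was 0.924 CPM to 8.42 CPM with a median of 2.20 CPM in H-F, against 0.489 CPM to 2.19 CPM with a median of 1.22 CPM in J. At d 8 it was 0.447 CPM to 6.45 CPM with a median of 1.85 CPM in H-F, and 0.409 CPM to 1.05 CPM with a median of 0.581 CPM in J. The spread between H-F calves was wide, with coefficients of variation of 82.1%, 81.5% and 85.3% on the 3 days, and the breeds overlapped on each day. The log2 fold change of J relative to H-F was -1.19 (SE 0.49) at d -14, -1.45 (SE 0.50) at d 1 and -1.87 (SE 0.53) at d 8. H-F calf 32, which had the highest level on all 3 days, weighed on these values, since without it they were -0.79, -1.06 and -1.45.

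IL13RA1, the interleukin 13 receptor subunit, lay in H-F between 70.5 CPM and 111.6 CPM at d -14, between 64.7 CPM and 104.7 CPM at d 1, and between 47.4 CPM and 94.0 CPM at d 8. The H-F medians were 74.4 CPM, 71.2 CPM and 65.6 CPM. In J it lay between 41.3 CPM and 70.8 CPM at d -14, between 40.5 CPM and 73.5 CPM at d 1, and between 41.1 CPM and 62.0 CPM at d 8. The J medians were 48.6 CPM, 50.7 CPM and 52.7 CPM. At d -14 only 1 calf of each breed fell in the overlap, whereas at d 8 it held 3 H-F and 5 J calves. The log2 fold change of J relative to H-F was -0.60 (SE 0.14), -0.47 (SE 0.14) and -0.40 (SE 0.14) on the 3 days.

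TNFSF12, the gene of the cytokine TWEAK, had medians of 12.9 CPM, 12.4 CPM and 12.2 CPM in H-F and of 7.91 CPM, 8.38 CPM and 7.95 CPM in J at d -14, d 1 and d 8. The H-F calves ranged from 9.70 CPM to 18.1 CPM, from 9.64 CPM to 21.0 CPM and from 10.4 CPM to 16.7 CPM on these days. The J calves ranged from 5.87 CPM to 11.1 CPM, from 6.22 CPM to 10.7 CPM and from 7.02 CPM to 11.95 CPM. H-F calf 33 had the highest level of all calves and J calf 6 the highest of the J calves on each day, and J calf 9 the lowest. The log2 fold change of J relative to H-F was -0.63 (SE 0.15), -0.59 (SE 0.15) and -0.59 (SE 0.15), and its size differed least between days among the 5 genes. TNFSF12 is followed in the RefSeq annotation of assembly ARS-UCD2.0 by TNFSF13, the gene of the B cell cytokine APRIL. Whether reads running through both were assigned to TNFSF12 was not tested.

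AIF1, the actin-binding protein, ranged in H-F from 119.6 CPM to 198.1 CPM at d -14, from 88.4 CPM to 189.6 CPM at d 1 and from 100.4 CPM to 207.4 CPM at d 8. The H-F medians were 173.6 CPM, 169.6 CPM and 152.2 CPM. In J it ranged from 55.97 CPM to 117.7 CPM at d -14, from 81.7 CPM to 103.3 CPM at d 1 and from 81.1 CPM to 125.9 CPM at d 8. The J medians were 102.5 CPM, 86.8 CPM and 105.2 CPM. No calf fell in an overlap at d -14, 1 H-F and 3 J calves did at d 1, and 2 H-F and 4 J calves did at d 8. The log2 fold change of J relative to H-F was -0.80 (SE 0.16), -0.82 (SE 0.16) and -0.59 (SE 0.16). In assembly ARS-UCD2.0 AIF1 lies within the span of NCR3, a natural killer cell receptor gene. The paper states that reads were counted with the union model of HTSeq-count. How reads from these overlapping genes were assigned was not tested.

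**Figure D2:**
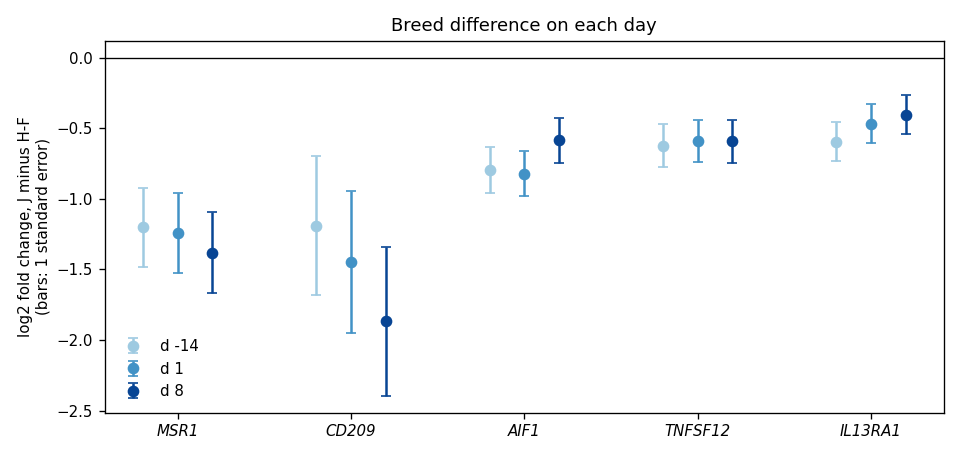
Log2 fold change of J relative to H-F for each gene at d -14, d 1 and d 8 from the edgeR fit on 45 libraries; points are estimates and bars are 1 SE. All 15 estimates are below 0, from -0.40 for IL13RA1 at d 8 to -1.87 for CD209 at d 8.

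A gene was called where the edgeR quasi-likelihood test gave a false discovery rate below 10% and the levels differed at least 1.5-fold. At d -14, 4 of the 5 genes were called lower in J, beside 2.52% of all genes called lower and 4.1% called in either direction. The count was again 4 of 5 at d 1, beside 1.84% of all genes called lower and 3.73% in either direction, and 4 of 5 at d 8, beside 1.93% and 3.13%. Nothing is read from these counts, because the genes were chosen from these contrasts. They also depended on single calves, falling to 2 of 5 at d -14 on removal of H-F calf 33, J calf 13 or J calf 9. At d 1 they fell to 2 on removal of calf 32 of the H-F or calf 57, 77 or 9 of the J calves, and at d 8 on removal of calf 20 or 33 of the H-F or calf 57, 60 or 9 of the J calves. CD209 missed the call at d -14, and IL13RA1, at 1.38-fold and 1.32-fold, fell short of the fold threshold at d 1 and d 8. AIF1 at d 8 stood just inside it at 1.501-fold, as did TNFSF12 at d 1 and d 8 and IL13RA1 at d -14 at 1.51-fold each. AIF1 at d 8 was accordingly not called with DESeq2, limma-voom, other size factors or other filters on low counts, nor was TNFSF12 at d 1 with limma-voom, whereas CD209 at d -14 was called with DESeq2, the edgeR exact test and all 16 calves. J calf 85, which took no part in the fit, lay under the H-F median for all 5 genes on all 3 days and under every H-F calf in 13 of 15 pairs of gene and day. In 4 of the 15 pairs it was also below every other J calf. The CPM of calf 85 came from a scaling over all 16 calves, unlike that of the calves it is set against. The study gave outliers among the samples as its reason for removing a J calf.

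The order of the 6 group means was the same in its main feature for each gene, with all 3 H-F means above all 3 J means. Neighbours in that order differed by less than the larger of their SD, except for the step from the lowest H-F mean to the highest J mean of AIF1 and of TNFSF12. AIF1 stepped from 149.7 CPM ± 35.7 (SD, n = 8) in H-F at d 8 to 99.7 CPM ± 17.5 (SD, n = 7) in J at d 8. TNFSF12 stepped from 12.6 CPM ± 2.10 (SD, n = 8) in H-F at d 8 to 8.61 CPM ± 1.395 (SD, n = 7) in J at d 1. The corresponding steps of MSR1, CD209 and IL13RA1 were within 1 SD.

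Other genes of the same kind were examined from lists of 16 monocyte markers, 40 phagocytic and pattern-recognition receptors, 22 genes of interleukin 4 and 13 signalling and 24 TWEAK-related genes. Only 2, 11, 1 and 3 of these could be matched to a row, all of them through the study's lists of breed-responsive genes, so that their breed counts are not independent evidence of a direction. Of the 2 monocyte markers, 2 were called lower in J at d -14, 1 at d 1 and 1 at d 8, and CLEC12A, an inhibitory lectin of myeloid cells, was called on all 3 days (log2 fold change -0.81, -0.71 and -0.79). Of the 11 phagocytic receptors, 8, 6 and 4 were called lower in J on the 3 days, with list medians of -0.76, -0.66 and -0.56 beside medians of 0.01, 0.00 and 0.00 over all genes tested. Single calves weighed on these counts, as 4 were called at d -14 without J calf 13 and 3 at d 1 without H-F calf 33. CLEC10A, a galactose-binding lectin of macrophages and dendritic cells, was called lower on all 3 days (-2.42, -2.27 and -1.49), as was PTX3, a secreted pattern-recognition molecule (-2.33, -1.84 and -2.66). MERTK, a receptor for apoptotic cells, stood at -0.19 (SE 0.19) at d -14 and 0.18 (SE 0.19) at d 1, neither of them called, and was called higher in J at d 8 (0.64, SE 0.19). PPARG, a nuclear receptor induced by interleukin 4, stood at -0.58 at d -14 and -0.48 at d 1, both short of the fold threshold. It was called lower at d 8 (-0.66, SE 0.17). Of the TWEAK-related genes, 2 were called lower at d -14, TNFSF9, a ligand of T cell costimulation (-0.61, SE 0.18), and TNFSF13B, the B cell survival factor BAFF (-0.73, SE 0.22), and TNFRSF13C, the BAFF receptor of B cells, was called higher at d -14 and d 1 (0.99 and 1.00).

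Markers of other blood cells were matched in the same way, so a marker absent from the study's lists of breed-responsive genes could not appear. That the matched markers differed by breed therefore followed from the matching, and their counts are a description. Of all 12677 genes tested, 200 were called higher and 320 lower in J at d -14. At d 1 it was 240 higher and 233 lower, and at d 8 it was 152 and 245. All 7 matched B cell markers of 10 were called higher in J at d -14, for example CD79B, a chain of the B cell receptor (0.78, SE 0.17). At d 8 edgeR called 0 of 7, although 7 of 7 had an unadjusted p under 0.05. Their summed level at d -14 ranged from 538.7 CPM to 1111 CPM in H-F and from 964.7 CPM to 1631 CPM in J. Of the 4 matched neutrophil markers of 17, 2 were called higher and 1 lower in J at d -14, with a summed level of 49.2 CPM to 99.9 CPM in H-F and 42.8 CPM to 79.5 CPM in J. IL1R2, a decoy receptor for interleukin 1, was the marker called lower on all 3 days (-1.30, -0.97 and -1.93), and LCN2, a granule protein, was called higher at d -14 (0.78, SE 0.21). Of the 3 matched dendritic cell markers of 15, 0 were called by edgeR at d -14 (2 at an unadjusted p under 0.05), 2 were called lower in J at d 1, BATF3 and CD83, and 1 at d 8, FLT3. Of the 4 matched natural killer cell markers of 11, 3, 2 and 3 were called lower on the 3 days, with the granzyme gene GZMA called on each (-0.70, -0.92 and -0.64). Of the 7 matched platelet markers of 10, 4, 5 and 5 were called lower, and those called on each day included PF4, a platelet chemokine (-0.82, -1.26 and -1.47), and TREML1 (-1.14, -1.39 and -1.32). None of the matched markers was at 0 in any library, and none of the 12 T cell and 10 red cell precursor markers was matched. The part of cell composition in the breed differences of the 5 genes was not tested.

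A change between days was then tested within each breed. CD209 was lower at d 8 than at d -14 in 7 of 8 H-F and 6 of 7 J calves. In the fit with the calf as a block, which compares each calf with itself, CD209 fell by 0.69 on the log2 scale (SE 0.25, adjusted p = 0.0807) in H-F from d -14 to d 8. It was 1 of 5 genes called there, beside 0.434% of all genes called lower and 1.08% in either direction. In J the blocked estimate was -1.25 (SE 0.32, adjusted p = 0.118), which missed the threshold, and 0 of 5 genes were called beside 0.205% of all genes. The call in H-F depended on single calves, as it was lost without H-F calf 25, 27, 32, 48 or 49, the adjusted p reaching 0.257 without calf 48. In J, in turn, it was gained without calf 13 or calf 57 and with all 16 calves, when the adjusted p was 0.0361.

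Taken over both breeds, a comparison added after these values were seen, CD209 fell by 0.97 on the log2 scale from d -14 to d 8 (SE 0.20, adjusted p = 0.00365), a level 1.96-fold lower. In this blocked fit 0.276% of all genes were called lower and 0.607% in either direction. The call held in all 15 fits that left out 1 calf each, in which the estimate ranged from -1.08 to -0.86 and the adjusted p from 0.00201 to 0.0148. It held with limma-voom and the calf as a random effect (-0.95, SE 0.26, adjusted p = 0.0255). Without the block the estimate was the same size, -0.99 (SE 0.36), and missed the threshold (adjusted p = 0.287). The changes of single calves were uneven, from -2.33 in J calf 6 to 0.48 in J calf 57. The decrease rests on low counts, as the J calves had 13 to 35 reads of CD209 at d 8.

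The other 4 genes showed smaller changes. Over both breeds MSR1 stood at -0.27 (SE 0.09, adjusted p = 0.0549) in the blocked fit, which passed the false discovery rate but at 1.204-fold was short of the fold threshold, and 12 of 15 calves had a lower level at d 8. IL13RA1 in H-F stood at -0.25 (SE 0.09, adjusted p = 0.0807) from d -14 to d 8, also short of the fold threshold, with 6 of 8 calves lower, and at -0.04 (SE 0.10, adjusted p = 0.974) in J. The study lists IL13RA1 as differing between the breeds at d -14 only. Its d -14 values thus entered the choice, and its adjusted p-values are not read as a test. AIF1 stood at -0.13 (SE 0.13) in H-F and 0.11 (SE 0.14) in J, and TNFSF12 at -0.04 (SE 0.08) and 0.00 (SE 0.09), values no larger than about their errors.

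**Figure D3:**
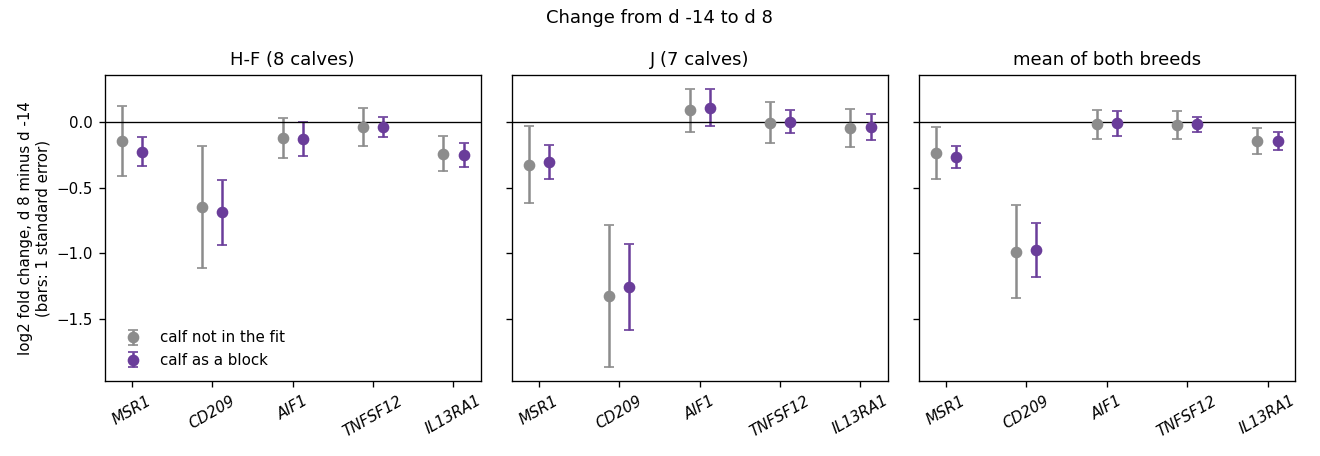
Log2 fold change from d -14 to d 8 for each gene in H-F, in J and as the mean of both breeds, without the calf in the edgeR fit (grey) and with the calf as a block (purple); bars are 1 SE. CD209 lies lowest in each panel, and the SE of its mean over both breeds is 0.36 without the block and 0.20 with it.

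Without the block, the edgeR quasi-likelihood test called 0 of the 5 genes in each of the 6 changes between days, beside 0.0710% of all genes for d -14 to d 8 in H-F and 0 of all genes for the other 5. At an unadjusted p under 0.05 the count was 1 of 5, CD209, for d -14 to d 8 in J and 0 of 5 for the others. The edgeR exact test and DESeq2 also called 0 of 5 in each of these 6 changes. Of all 12677 genes they called at most 20 and 22, both for d -14 to d 8 in H-F. So did limma-voom call 0 of 5 in each, with the calf as a random effect, which does take the pairing into account. From d -14 to d 8 it called 135 of all genes in H-F and 21 in J. From d -14 to d 1 it called 18 in H-F and 4 in J, and from d 1 to d 8 it called 0 in either breed. With the block, 0 of 5 were called from d -14 to d 1 in H-F (0.252% of all genes) and in J (0.0552%), and from d 1 to d 8 in either breed, where 0 of all genes were called.

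The difference between the breeds in these changes, that is the breed by day interaction, was called for 0 of 5 genes by edgeR with or without the block (0 of 5 also at an unadjusted p under 0.05, and 0 of 5 by DESeq2 without the block). It was called for 0 of all genes without the block and for 0.0158% with it from d -14 to d 8. For CD209 from d -14 to d 8 it was -0.57 (SE 0.41, adjusted p = 0.71) with the block, so that a difference in the decrease between the breeds was not shown. The interactions of the other 4 genes over the same days ranged from -0.08 for MSR1 to 0.24 for AIF1. The interactions are built from the breed contrasts by which the genes were chosen. For IL13RA1 the choice rested on d -14 only, so no test is read for it.

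Of the 11 matched phagocytic receptors, the blocked fit called 1 lower and 1 higher from d -14 to d 8 over both breeds. C3AR1, the receptor of complement fragment C3a, fell by 0.63 on the log2 scale (SE 0.18, adjusted p = 0.0324), and PTX3 rose by 1.07 (SE 0.26, adjusted p = 0.0114). Both were matched through the study's lists of breed differences. The paper's pathway results give C3AR1 as lower in J at d -14 and d 1 and not at d 8. Its d -14 values thus entered its choice, and its adjusted p is not read as a test. The list median was -0.19, beside 0.00 over all genes tested. Of the 2 monocyte markers, 0 were called by edgeR with the block (0 also at an unadjusted p under 0.05), and CLEC12A stood at 0.04 (SE 0.06, adjusted p = 0.744) and FCGR3A, an Fc receptor for immunoglobulin G, at 0.18 (SE 0.14, adjusted p = 0.474). Of the 3 dendritic cell markers, 0 were called by edgeR over both breeds (1 at an unadjusted p under 0.05), with a median of -0.09, while in J alone FLT3, a growth factor receptor of dendritic cell precursors, fell by 0.66 (SE 0.13, adjusted p = 0.0188). FLT3 was matched through the study's lists of breed differences, and the paper's pathway results give it as lower in J at d 8 only. Its J values at d 8 thus entered its choice, and this adjusted p is not read as a test. In the blocked fit over both breeds, the B cell markers had 0 of 7 called by edgeR but 6 of 7 at an unadjusted p under 0.05, all 7 with positive values and a median of 0.21 (0.36 in H-F and 0.06 in J). These markers were also matched through the breed lists, and all 7 were called higher in J at d -14. Their d -14 values thus entered the choice. The neutrophil markers had 0 of 4 called and 3 of 4 at an unadjusted p under 0.05, with a median of -0.03 (0.19 in H-F and -0.24 in J). In J alone 1 of 4 was called lower, beside 0.158% of all genes. These markers were matched through the breed lists as well, and this call is not read as a test. The part of cell composition in the decrease of CD209 was not tested.

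How far a calf kept its level over the 3 days differed among the 5 genes. After the mean of each breed and day was removed, the share of the variance of log2 CPM that lay between calves was 80.5% for MSR1, 70.3% for TNFSF12, 60.1% for CD209, 50.7% for IL13RA1 and 23.6% for AIF1. The median over all 12677 genes was 42.6%, with quartiles of 26.6% and 59.4%. MSR1 exceeded 93.7% of all genes in this share, while AIF1 exceeded 20.7%. The share of AIF1 depended on single calves, ranging from 10.6% once H-F calf 56 was removed to 37.1% once calf 20 of the same breed was, and it rose by over 1.5 times also on removal of J calf 13, whereas that of MSR1 stayed between 76.7% and 82.9% on leaving out each calf. For MSR1 the SD between calves of a breed was 0.50 on the log2 scale, against 0.24 between the days of a calf. For AIF1 the order was the reverse, with 0.16 between calves and 0.29 between days. CD209 varied most in both respects, with 0.74 between calves and 0.60 between days. These shares are a description of 15 calves and were not tested.

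**Figure D4:**
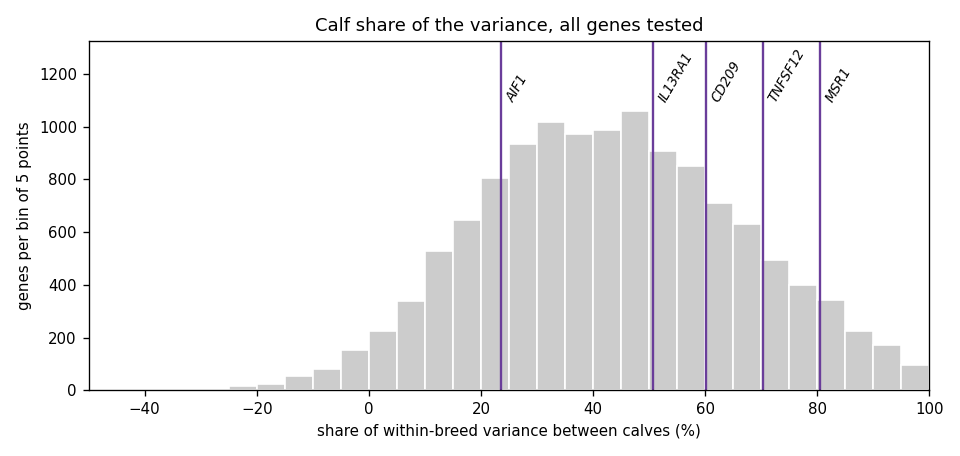
Share of the within-breed variance of log2 CPM that lies between calves, in percent, for 12677 genes (grey bars, number of genes in bins of 5 points; the estimate can fall below 0), with a purple line for each of the 5 genes. With all 15 calves AIF1 at 23.6% lies below the lower quartile of 26.6%, though not once calf 20 of the H-F or calf 13 or 9 of the J calves is removed, and MSR1 at 80.5% lies above the upper quartile of 59.4%.

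Relations between the 5 genes across calves were examined within each breed, with exact permutation tests, as the mean level of a calf over 3 days and as its change from d -14 to d 8, which gave 40 relations. In total 33 of the 40 were positive, 5 had an unadjusted exact p under 0.05, and 0 had an adjusted p under 0.05 after Benjamini-Hochberg adjustment over the 40. The relations are therefore given as values.

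The closest relation of levels was that of TNFSF12 and IL13RA1. In H-F the Pearson correlation was 0.95 (n = 8, two-sided exact permutation p = 0.00389, adjusted p = 0.156) and the Spearman correlation 0.71 (exact permutation p = 0.0576, adjusted p = 0.526). In J the Pearson correlation was 0.84 (n = 7, exact permutation p = 0.0188, adjusted p = 0.188) and the Spearman correlation 0.89 (exact permutation p = 0.0123, adjusted p = 0.492). Without the 2 calves farthest from the median of TNFSF12 it was 0.68 in H-F and 0.91 in J. H-F calf 33 was the highest for both genes. The changes from d -14 to d 8 of the same pair correlated at 0.07 in H-F and -0.26 in J, but the value in H-F rested on single calves and was 0.91 without the 2 calves farthest from the median change of TNFSF12.

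Among the changes from d -14 to d 8, MSR1 and CD209 gave the highest correlation in each breed, though neither value passed the adjustment. The Pearson correlation was 0.83 in H-F (n = 8, exact permutation p = 0.0107, adjusted p = 0.188) with a Spearman correlation of 0.76 (exact permutation p = 0.0368, adjusted p = 0.526). In J it was 0.81 (n = 7, exact permutation p = 0.0288, adjusted p = 0.23) with a Spearman correlation of 0.75 (exact permutation p = 0.0663, adjusted p = 0.526). Without the 2 calves farthest from the median change of MSR1 it was 0.62 in H-F and 0.79 in J. On leaving out each calf it ranged from 0.60 to 0.89 in H-F and from 0.71 to 0.93 in J. For their levels the correlation was weaker, 0.49 in H-F and 0.66 in J, and it rested on the extreme calves, since without the 2 farthest it was -0.24 and 0.16.

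CD209 and AIF1 correlated in level at 0.87 in J (n = 7, exact permutation p = 0.0179, adjusted p = 0.188), with a Spearman correlation of 0.68 (exact permutation p = 0.11, adjusted p = 0.526) and 0.63 without the 2 farthest calves, and at 0.09 in H-F. The difference between the breeds was not tested. AIF1 and IL13RA1 stood at 0.58 in H-F and 0.67 in J. The lowest correlation of levels was that of MSR1 and AIF1 in H-F, at -0.21.

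**Figure D5:**
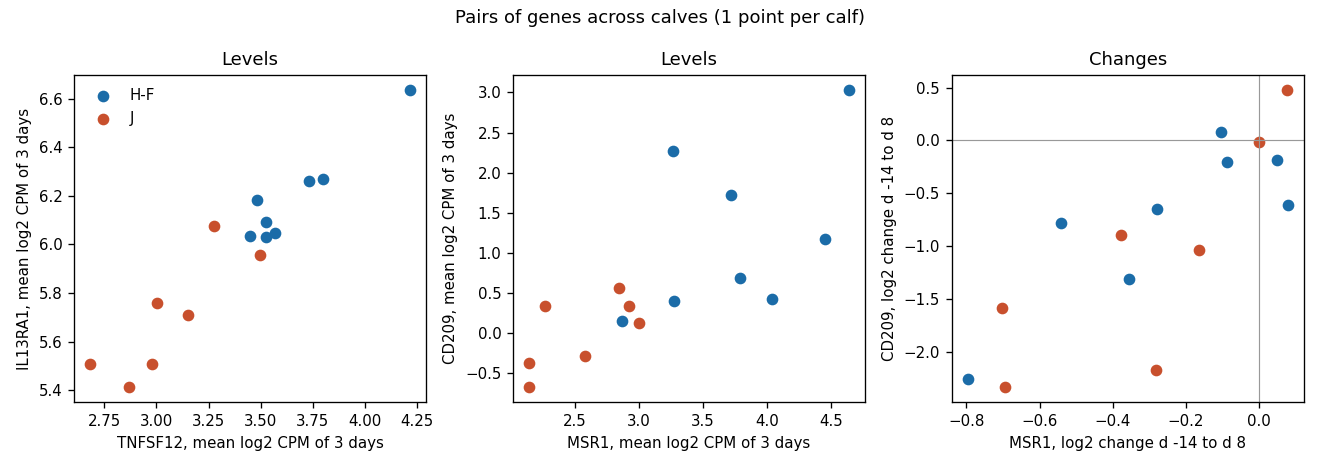
Mean log2 CPM over 3 days of TNFSF12 against IL13RA1 (left) and of MSR1 against CD209 (middle), and log2 change from d -14 to d 8 of MSR1 against CD209 (right), with 1 point per calf for 8 H-F and 7 J calves. Within-breed Pearson correlations are 0.95 (H-F) and 0.84 (J) on the left, 0.49 and 0.66 in the middle, and 0.83 and 0.81 on the right.

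Over the 15 calf means with breed means removed, all genes tested were ranked by their Pearson correlation with each of the 5 genes, as a description without a test. IL13RA1 ranked at place 6 of 12676 for TNFSF12 and TNFSF12 at place 7 for IL13RA1 (r = 0.89). CD209 ranked at place 213 for MSR1 and MSR1 at place 448 for CD209 (r = 0.52). AIF1 and MSR1 stood at r = -0.01, below the median place of all genes for MSR1. The 3 genes most like each one reached r of 0.77 to 0.79 for MSR1, 0.80 to 0.82 for CD209, 0.91 to 0.92 for AIF1, 0.90 to 0.91 for TNFSF12 and 0.90 to 0.92 for IL13RA1, and none of these 15 had a symbol in the sources used here. The leading one for IL13RA1 was ENSBTAG00000018862 and for AIF1 ENSBTAG00000007268.

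Against the matched marker genes on the same measure, the 2 monocyte markers gave unlike values. With CLEC12A the correlation was 0.73 for IL13RA1, 0.65 for TNFSF12, 0.38 for AIF1, -0.20 for CD209 and -0.32 for MSR1. With FCGR3A it was 0.77 for AIF1, 0.37 for CD209, 0.17 for IL13RA1, 0.17 for TNFSF12 and 0.09 for MSR1. Of the 11 phagocytic receptors, 10 correlated positively with AIF1 (median r 0.46, range -0.24 to 0.79), 10 with TNFSF12 (0.41, -0.31 to 0.74), 10 with IL13RA1 (0.39, -0.21 to 0.84), 9 with CD209 (0.37, -0.24 to 0.60) and 7 with MSR1 (0.16, -0.29 to 0.39). All 7 B cell markers correlated negatively with AIF1 (-0.81 to -0.51), TNFSF12 (-0.75 to -0.55) and IL13RA1 (-0.72 to -0.59), and less so with CD209 (-0.50 to -0.21) and MSR1 (-0.22 to -0.01). The points share libraries and scaling, and the values are shares of a common total in each library.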

How the data were processed

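Whole-blood RNA was sequenced from TruSeq v2 libraries. Per the labels and the study's methods, the authors aligned reads to UMD3.1 with STAR and assigned them to Ensembl genes with HTSeq. Versions and strand setting were not given in the sources used here. The deposited values are whole-number read counts without normalization, with 92 spike-in sequences that were removed here. The 12677 genes retained exceeded 1 CPM in 8 or more libraries. J calf 85 was left out because the study's mean log2 CPM values were matched only without it, although the study does not name the calf. The main test was edgeR 4.0.16 quasi-likelihood (TMM, 6 breed and day means, Benjamini-Hochberg adjustment, adjusted p under 0.1, fold of at least 1.5). Calves pair the libraries, being the same animals, and deviations from group means of libraries of 1 calf correlated at 0.56 to 0.77, against a median of -0.11 between calves. Alternatives were the calf as a block, the edgeR exact test, DESeq2 1.42.0, limma 3.58.1 voom, other size factors and filters, all 16 calves, and leaving out each calf. Log2 CPM used a prior count of 2.

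The 5 genes, the gene lists and the tests were chosen with earlier results of these data known. Named beyond them are genes called on all 3 days or with the smallest adjusted p in a direction in each list, and the 3 genes most like each of the 5. C3AR1, FCGR3A, BATF3, CD83, FLT3 and TNFSF13B were named after their values were seen. Symbols were matched for 695 of 800 genes in the study's lists. A RefSeq table of another assembly served for neighbours only, and no sequences or coordinates are given. Results of some marker genes are not reported here.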

Additional observations from a re-analysis of the deposited data

Results flagged for a closer look

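In 3 of the 30 groups of calves examined (5 genes, 2 breeds and 3 days), 1 calf lay farther from its nearest neighbour than Dixon's 95% limit allows; chance alone flags about 1 group in 20. TNFSF12 in H-F calf 33 at d 1 was 21.0 CPM, while the next H-F calf had 13.5 CPM. IL13RA1 in the same calf at d 1 was 104.7 CPM, against 82.6 CPM in the next. TNFSF12 in J calf 6 at d 8 was 11.95 CPM, against 9.05 CPM in the next J calf.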

How the results depend on the processing

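The counts of the 5 genes called between days changed only with the calf block or limma-voom. For d -14 to d 8 in H-F the count was 0 without the block and 1 with the replicate block (CD209), also with the block and all 16 calves, and 0 to 1 when each calf was left out of the blocked fit. In J it was 0 with the block, 1 with the block and all 16 calves, and 0 to 1 on leaving out each calf of the blocked fit. With limma-voom and the calf as a random effect the count was 0 in H-F and 0 in J. Over both breeds, a comparison chosen after seeing the data, it was 0 without the block and 1 with it, with the block and all 16 calves, with limma-voom and in all blocked fits leaving out a calf (range 1 to 1). The block changed no other call of the 5 genes between days, and breed differences cannot be estimated with it. These blocked fits with a calf left out or with all 16 calves, and limma-voom over both breeds, were also chosen after seeing the data. Median breed differences of the 5 genes stayed negative on leaving out each calf (-0.86 to -0.71, -0.91 to -0.78 and -0.69 to -0.52 at d -14, d 1 and d 8). Of the monocyte markers, 1 to 2 were called at d -14 (1 once J calf 13 or 57, or 25, 32 or 48 of the H-F calves, was removed) and 0 to 2 at d 1 (0 after removing H-F calf 33, and 2 after removing calf 20 or 49 of that breed) when a calf was left out, and 2 at d 1 with no fold-change threshold; of the phagocytic receptors, 4 to 10 at d -14 and 3 to 8 at d 1, the lowest counts being those without J calf 13 (4) and H-F calf 33 (3). No correlation passed in any alternative, and the median calf share ranged from 53.0% to 65.3% on leaving out a calf (AIF1 from 10.6% to 37.1%). Changes smaller than their SE were given no direction. With 8 and 7 calves a breed, adjusted p-values over 40 relations limit what can be shown, and CD209 is limited by its low counts.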
